A study of Mus musculus with 24 samples.

Results

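The neurotrophins are secreted growth factors that support the survival, growth and synaptic plasticity of neurons. The genes examined here were the ligands Bdnf (brain-derived neurotrophic factor), Ntf3 (neurotrophin 3) and Ntf5 (the mouse gene for neurotrophin 4/5), the receptors Ntrk2 (TrkB, which binds BDNF and neurotrophin 4/5), Ntrk3 (TrkC, which binds neurotrophin 3) and Ngfr (p75NTR, which binds all neurotrophins), and Sort1 (sortilin, a sorting receptor that binds proneurotrophins and pairs with p75NTR). They were chosen by name, as the rows of the count table whose Ensembl identifier maps to these symbols, and are 7 of its 55471 genes. Ligand binding makes Trk receptors phosphorylate themselves and activate the Ras and MAP kinase, PI3 kinase and PLC-gamma pathways, whereas p75NTR with sortilin is known for responses to unprocessed proneurotrophins. In the hippocampus, BDNF is made mainly by excitatory neurons, its transcription rises with neuronal activity from several alternative promoters, and CREB, the transcription factor that recruits the coactivator CBP, is a known regulator of it.

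The study asked how loss of CBP in adult forebrain neurons and housing in an enriched environment (EE) act on hippocampal transcription. CBP-ifKOs carried floxed Crebbp (Crebbp f/f) and CaMKIIα-creERT2, a tamoxifen-inducible Cre driven in forebrain excitatory neurons, and their control littermates lacked the Cre transgene. Both genotypes were female mice of 3 to 6 months on a C57BL/6 background (C57BL/6J in the study's methods) and received tamoxifen, in 5 administrations at 20 mg/mL. The mice lived in standard cages (SC) or in EE, and bulk hippocampal RNA of 3 mice in each of the 4 groups was sequenced, 1 mouse per library. Recombination is limited to excitatory neurons, so that CBP remains in the other cells of the tissue, and the recombined allele still gives a shortened protein without acetyltransferase activity.

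The libraries held between 26874015 and 27971488 counts in control littermates and between 28582210 and 37448388 in CBP-ifKOs. In CBP-ifKOs all 148570 counts above 0 were even numbers, while in each control library 54.0% to 55.1% were odd. Whether reads entered the CBP-ifKO counts more than once was not tested. Halving these counts moved no neurotrophin gene across the threshold of the test. Crebbp itself, the targeted gene, stood at 69.6 to 81.9 CPM (counts per 1000000, normalized between libraries by edgeR's TMM method) in the 6 control littermates and at 44.5 to 51.5 CPM in the 6 CBP-ifKOs, and thus followed the labels in all 12 mice. Slc17a7, the vesicular glutamate transporter of excitatory neurons, was measured at 1140 to 1359 CPM and did not pass the test between genotypes (log2 fold change 0.01 ± 0.04, SE; adjusted p = 0.941, edgeR, averaged over housing). Among the other excitatory neuron markers, Nrgn (-0.52 ± 0.05, adjusted p = 7.52e-06) and Neurod6 (-0.17 ± 0.04, adjusted p = 0.0129) fell, and Tbr1 (-0.19 ± 0.08) did not pass. EE-housed control replicate 1 stood apart in the 5 choroid plexus markers, at a summed 122 CPM against 26.0 to 31.7 CPM in the other 11 mice. Without it, the changes between genotypes averaged over housing were -0.73 for Bdnf, -0.54 for Ntf3, -0.53 for Ngfr and -0.25 for Sort1, all called (adjusted p = 3.72e-06, 0.00183, 0.0404 and 0.00293 in edgeR), and no neurotrophin gene was called between EE and SC.

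On GRCm38, Bdnf lies at chr2:109674700-109727007 on the plus strand, Ntf3 at chr6:126101412-126166910 on the minus strand and Ntf5 at chr7:45413695-45417179 on the plus strand. The receptor genes lie at chr13:58806569-59133970 (Ntrk2, plus), chr7:78175959-78738012 (Ntrk3, minus), chr11:95568818-95587735 (Ngfr, minus) and chr3:108284082-108361511 (Sort1, plus). Bdnf shares 896 of its 6217 exonic bases with the antisense gene Gm45346, and Sort1 shares 338 of its 7569 with the antisense gene Gm12523. Both antisense genes had a mean count of 0.917 per library. Whether counting used the strand is not given in the sources used here, so that reads from the shared bases cannot be assigned to one strand.

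Bdnf is shown at sequence level because its alternative promoters are where CREB and CBP are known to act. The promoter windows from RefSeq (GRCm38.p6) used here were 7 of Bdnf, 2 of Ntf3 and 1 each of Ntrk2 and Ngfr, each the 250 bases before a transcript start. Promoters of Ntf5, Ntrk3 and Sort1 were not analysed here. A single one of these 11 windows, the Bdnf window at chr2:109692186-109692435, held the core of the cAMP response element (TGACG on either strand), at 35 bases before the start, and the Bdnf window at chr2:109674450-109674699, before the first exon, did not. Capitals mark the core, read here as its complement CGTCA.
Bdnf window at the first start: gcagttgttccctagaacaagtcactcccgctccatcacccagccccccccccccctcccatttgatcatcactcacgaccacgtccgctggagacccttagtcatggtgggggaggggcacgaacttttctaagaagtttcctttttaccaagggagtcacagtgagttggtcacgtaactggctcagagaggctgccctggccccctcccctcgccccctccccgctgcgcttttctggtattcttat
Bdnf window with the core: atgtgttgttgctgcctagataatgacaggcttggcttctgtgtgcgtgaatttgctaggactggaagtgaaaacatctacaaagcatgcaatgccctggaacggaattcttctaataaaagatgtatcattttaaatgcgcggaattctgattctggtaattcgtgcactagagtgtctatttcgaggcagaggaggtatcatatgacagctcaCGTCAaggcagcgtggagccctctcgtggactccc
The core was found in 17.8% of 32851 RefSeq windows of this length, and the full element TGACGTCA in 1.55%. None of the 11 windows held the full element. The counts sum over all Bdnf transcripts, so the data do not tell which promoter was used.

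Per kilobase of deposited exonic length, sortilin was the most abundant of these transcripts and neurotrophin 4/5 the least. Over all 12 mice, the length-scaled level of Sort1 was 88.5 ± 9.37 CPM per kilobase (SD, n = 12), that of Ntrk2 29.9 ± 2.38, that of Ntrk3 8.98 ± 0.671 and that of Bdnf 6.97 ± 1.90. Ntf3 followed at 2.83 ± 0.592, Ngfr at 0.411 ± 0.113 and Ntf5 at 0.0760 ± 0.0538. The levels of Ntrk3 (8.23 to 10.6) and Bdnf (4.83 to 10.4) overlapped, and every other pair of neighbours in this order was separate in all mice. The exonic length of Ntrk2 and Ntrk3 sums over transcripts of kinase-bearing and truncated receptors, which the counts do not separate.

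**Figure D1:**
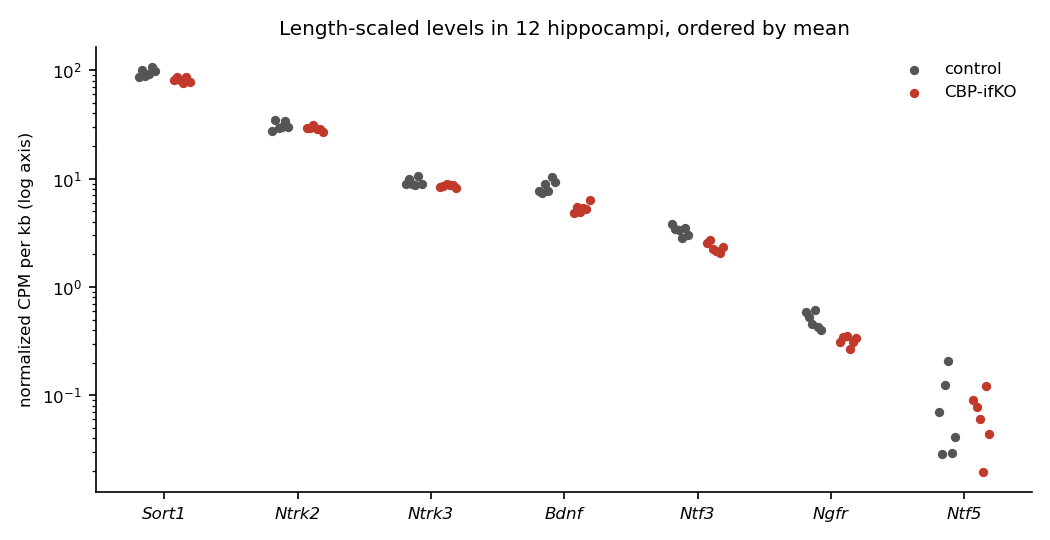
Length-scaled levels (normalized CPM per kilobase, log axis) of the 7 neurotrophin genes, ordered by their mean over 12 mice, with 1 point per mouse and the genotypes in separate columns of points. Sort1 and Ntrk2 sit above 26 in every mouse, Ntf5 sits below 0.21, and the control and CBP-ifKO points of Bdnf, Ntf3 and Ngfr do not overlap.

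Bdnf and Ntf3 fell in CBP-ifKOs. Bdnf was lower in CBP-ifKOs in both housing conditions, and Ntf3 was lower when the genotypes were compared over all 12 mice. In SC, Bdnf stood at 47.3, 46.1 and 54.9 CPM in the control littermates and at 30.0, 33.8 and 30.9 CPM in the CBP-ifKOs. In EE, it stood at 48.1, 64.9 and 58.4 CPM in the control littermates and at 33.6, 32.3 and 39.6 CPM in the CBP-ifKOs. Every CBP-ifKO thus lay below every control littermate, whichever the housing. The log2 fold change of Bdnf was -0.65 ± 0.08 (SE) in SC with an adjusted p of 0.00102 and -0.69 ± 0.11 in EE with an adjusted p of 0.00546 (edgeR quasi-likelihood test, 3 against 3 mice, Benjamini-Hochberg adjustment over all genes tested). Averaged over housing, in a fit of all 12 mice, it was -0.68 ± 0.07 with an adjusted p of 1.89e-05. Fewer Bdnf-expressing cells and less Bdnf RNA per cell cannot be told apart in bulk tissue, here and for every gene below.

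Ntf3, whose product is the preferred ligand of TrkC, had lower CPM than Bdnf in every mouse. Its levels in SC were 6.57, 5.85 and 5.73 CPM in the control littermates and 4.36, 4.63 and 3.86 CPM in the CBP-ifKOs. In EE they were 4.81, 6.06 and 5.19 CPM in the control littermates and 3.72, 3.52 and 3.99 CPM in the CBP-ifKOs. As for Bdnf, the genotypes did not overlap. The log2 fold change of Ntf3 was -0.51 ± 0.09 (SE) averaged over housing, with an adjusted p of 0.00163 (edgeR). Within SC it was -0.50 ± 0.14 with an adjusted p of 0.0561, and within EE -0.51 ± 0.15 with an adjusted p of 0.0852, so that neither passed the threshold of 0.05 in the fits of 6 mice. Both passed it when the spread was estimated from all 12 mice, with adjusted p-values of 0.0396 in SC and 0.0307 in EE.

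Ntf5 was detected at 2 to 15 counts per library, and 3 of the 12 libraries had 2 counts, below a floor of 3 counts, which corresponds to 0.0801 to 0.112 CPM and covers counting error only. Its groups overlapped in every comparison, at 16 counts in all in control littermates and 20 in CBP-ifKOs in SC, and at 20 and 18 in EE. With the CBP-ifKO counts halved, their totals were 10 in SC and 9 in EE, and the floor then stands for fewer reads in those libraries. Ntf5 did not pass edgeR's filter on low counts, and a difference between groups was not detectable at this depth.

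Among the receptors, Ngfr and Sort1 fell in CBP-ifKOs and the Trk receptors did not pass the test. Ngfr stood at 2.003, 1.81 and 1.56 CPM in SC-housed control littermates and at 1.08, 1.18 and 1.22 CPM in SC-housed CBP-ifKOs. In EE it was at 2.13, 1.47 and 1.39 CPM in control littermates and at 0.929, 1.07 and 1.17 CPM in CBP-ifKOs. The genotypes did not overlap in CPM, at 38 to 58 counts per library in control littermates and 34 to 46 in CBP-ifKOs. The CBP-ifKO counts were all even, and whether they stand for fewer reads was not tested. Averaged over housing, the log2 fold change of Ngfr was -0.64 ± 0.16 (SE; adjusted p = 0.0122, edgeR), close in size to that of Bdnf but with a wider error. Within SC (-0.63 ± 0.22, adjusted p = 0.132) and within EE (-0.65 ± 0.25, adjusted p = 0.182) it did not pass. In the brain, p75NTR is best known from the cholinergic neurons of the basal forebrain. Of their 4 markers, Chat (0 to 0.0731 CPM), Slc18a3 (0 to 0.119) and Lhx8 (0 to 0.0725) were at or near 0, and Slc5a7, the choline transporter, was at 0.597 to 1.35 CPM. Slc5a7 differed between genotypes by -0.50 ± 0.34 (SE) on the log2 scale in SC and by 0.04 ± 0.35 in EE (adjusted p = 0.439 and 0.971 in edgeR). The 4 markers summed to 0.771 to 1.24 CPM in control littermates and 0.635 to 1.47 CPM in CBP-ifKOs, and the part of these cells in the change of Ngfr was not tested.

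Sort1 stood at 654, 759 and 666 CPM in SC-housed control littermates and at 615, 653 and 617 CPM in SC-housed CBP-ifKOs. In EE it was at 702, 808 and 746 CPM in control littermates and at 580, 654 and 587 CPM in CBP-ifKOs. The genotypes did not overlap within either housing, but the highest CBP-ifKO, in EE, lay level with the lowest control littermate, in SC. The log2 fold change of Sort1 was -0.22 ± 0.05 (SE) averaged over housing, with an adjusted p of 0.00433, and -0.30 ± 0.07 in EE with an adjusted p of 0.0296 (edgeR). In SC it was -0.14 ± 0.06, with an adjusted p of 0.221, and -0.07 without control replicate 2. The call in EE was lost without control replicate 3 (adjusted p = 0.0969) and without CBP-ifKO replicate 1 (0.121) or 3 (0.153), in edgeR fits of the other 5 mice.

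Ntrk2, the receptor of BDNF, was measured at 532 to 671 CPM in SC-housed control littermates and at 561 to 600 CPM in SC-housed CBP-ifKOs, which overlapped. In EE, the CBP-ifKOs lay at 516 to 551 CPM and the control littermates at 574 to 656 CPM. The log2 fold change of Ntrk2 was -0.04 ± 0.08 (SE) in SC, -0.15 ± 0.06 in EE and -0.10 ± 0.05 averaged over housing (adjusted p = 0.841, 0.232 and 0.249 in edgeR). Ntrk3 was at 267 to 302 CPM in control littermates and 254 to 270 CPM in CBP-ifKOs in SC, and at 266 to 321 and 248 to 263 CPM in EE. The log2 fold change of Ntrk3 was -0.09 ± 0.06, -0.14 ± 0.07 and -0.12 ± 0.05 in the same order (adjusted p = 0.413, 0.332 and 0.108).

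**Figure D2:**
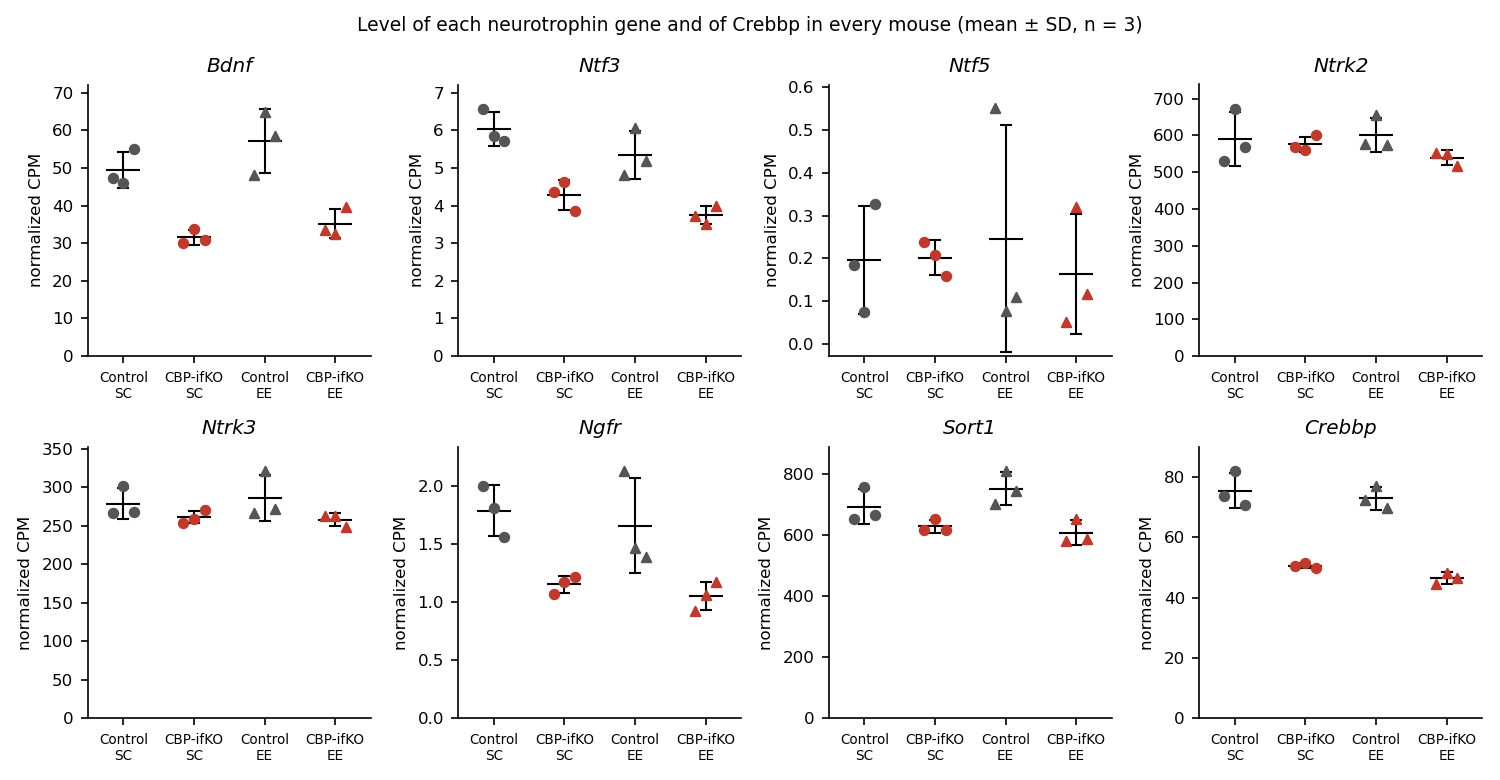
Normalized CPM of each neurotrophin gene and of Crebbp, the targeted gene, in every mouse (circles, SC; triangles, EE; grey, control littermates; red, CBP-ifKOs), with the mean and SD of each group of 3 as black bars. All 6 CBP-ifKOs sit below all 6 control littermates for Bdnf, Ntf3, Ngfr and Crebbp, the genotypes overlap in SC for Ntrk2 and Ntrk3, and the groups of Ntf5 overlap throughout.

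In counts, 1 of the 6 neurotrophin genes tested was called between genotypes in SC (Bdnf), where 5.52% of 17532 genes were called in either direction, and 2 of 6 in EE (Bdnf and Sort1), where 4.57% of 17625 genes were called. Averaged over housing, 4 of 6 were called, all lower in CBP-ifKOs (Bdnf, Ntf3, Ngfr and Sort1), where 16.9% of 18251 genes were called in either direction and 10.3% lower. For 3 of the 6 (Bdnf, Ntf3 and Ngfr), all 6 CBP-ifKOs lay below all 6 control littermates, which held for 5.35% of those genes. The median log2 fold change of all genes was 0.0029 in this comparison, against -0.59 for the 2 ligands tested and -0.17 for the 4 receptors.

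The ratio of Bdnf to its receptor needs no scaling between libraries. Counts of Bdnf per kilobase were 0.276, 0.213 and 0.300 times those of Ntrk2 in SC-housed control littermates and 0.164, 0.187 and 0.160 times in SC-housed CBP-ifKOs. In EE the ratio was 0.259, 0.307 and 0.316 in control littermates and 0.189, 0.182 and 0.238 in CBP-ifKOs. Within each housing, every CBP-ifKO had a lower ratio than every control littermate. The difference in log2 ratio was -0.58 in CBP-ifKOs, a ratio 0.670 times that of control littermates (two-sided exact permutation of the genotype labels within housing, p = 0.005, the smallest that the 400 assignments can give; adjusted over 6 tests of the ratio, p = 0.03). Within SC (-0.62) and within EE (-0.54), the exact p was 0.1, the smallest that 3 against 3 mice allow. Between EE and SC the log2 ratio differed by 0.21 over both genotypes, which did not pass (exact permutation p = 0.095, adjusted p = 0.15). The ratio uses the Bdnf counts already compared above and is no separate measurement of them.

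**Figure D3:**
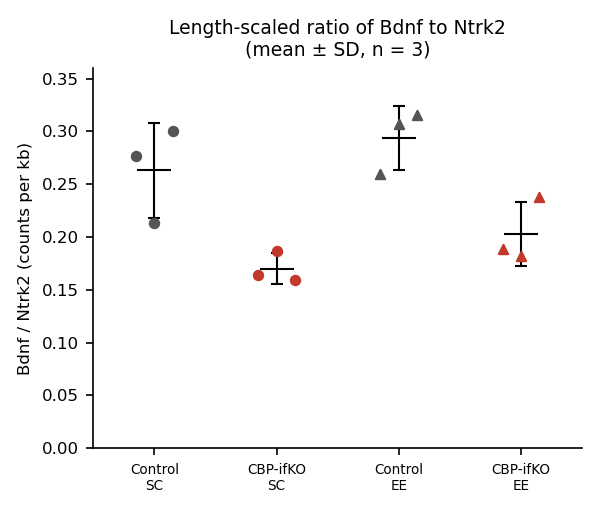
Ratio of Bdnf to Ntrk2 in counts per kilobase in every mouse (circles, SC; triangles, EE; grey, control littermates; red, CBP-ifKOs), with the mean and SD of each group of 3. The CBP-ifKOs lie at 0.160 to 0.187 in SC and 0.182 to 0.238 in EE, below the control littermates of the same housing at 0.213 to 0.300 and 0.259 to 0.316.

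As shares of the summed length-scaled level of the 3 ligand genes (Bdnf, Ntf3 and Ntf5), Bdnf made up 68.7% ± 2.88 (SD, n = 3) in SC-housed control littermates and 66.3% ± 1.75 in SC-housed CBP-ifKOs. In EE its share was 74.0% ± 1.78 and 71.5% ± 1.20. Ntf3 made up 30.6% ± 3.13 and 32.7% ± 1.57 in SC and 25.2% ± 0.905 and 27.7% ± 0.976 in EE, in control littermates and CBP-ifKOs. The genotypes overlapped for both shares in SC and for the Bdnf share in EE, and the Ntf3 share was higher in every EE-housed CBP-ifKO than in every EE-housed control littermate. Within each genotype the housing groups did not overlap. The Bdnf share was 72.0 to 75.4% in EE and 66.1 to 71.8% in SC in control littermates, and 70.5 to 72.8% and 64.7 to 68.2% in CBP-ifKOs. The Ntf3 share was lower in EE, at 24.3 to 26.1% against 27.2 to 33.3% in control littermates and 26.7 to 28.6% against 31.0 to 34.1% in CBP-ifKOs. These shares were not tested.

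EE is widely used to raise sensory, motor and social stimulation, and none of the 6 neurotrophin genes tested passed the threshold between EE and SC. Bdnf had the largest difference that was higher in EE, with a mean of 57.1 ± 8.48 CPM (SD, n = 3) against 49.4 ± 4.81 in SC in control littermates, and 35.2 ± 3.87 against 31.6 ± 1.95 in CBP-ifKOs. EE and SC overlapped in both genotypes. Its log2 fold change between EE and SC was 0.21 ± 0.10 (SE) in control littermates, 0.16 ± 0.11 in CBP-ifKOs and 0.18 ± 0.07 averaged over genotype, with adjusted p-values of 0.999, 0.711 and 0.447 in edgeR (the last with an unadjusted p of 0.0261 in the edgeR fit of all 12 mice). Leaving out 1 mouse at a time gave 0.13 to 0.24 for the averaged value. In control littermates the value was 0.11 without EE replicate 2 and 0.32 without EE replicate 1, and in CBP-ifKOs it was 0.06 without EE replicate 3. None of these passed the test. The means of Bdnf in EE-housed CBP-ifKOs remained below those of SC-housed control littermates, and the 3 mice of either group did not overlap (32.3 to 39.6 against 46.1 to 54.9 CPM).

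Ntf3 was lower in EE on average, by log2 fold changes of -0.18 ± 0.13 in control littermates, -0.19 ± 0.13 in CBP-ifKOs and -0.19 ± 0.09 over both (adjusted p = 0.999, 0.719 and 0.566 in edgeR), and its groups overlapped. For Ngfr the changes were -0.11 ± 0.22, -0.13 ± 0.23 and -0.12 ± 0.16, and for Ntrk3 0.04 ± 0.07, -0.02 ± 0.07 and 0.01 ± 0.05. Sort1 differed by 0.12 ± 0.07 in control littermates and by -0.05 ± 0.07 in CBP-ifKOs, and Ntrk2 by 0.03 ± 0.08 and -0.10 ± 0.08. For Ntrk2 in CBP-ifKOs, all 3 EE mice (516 to 551 CPM) lay below all 3 SC mice (561 to 600 CPM), and the groups of the other receptors overlapped in both genotypes. The adjusted p-values of these receptor changes were all 0.753 or higher.

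In counts, 0 of 6 neurotrophin genes were called between EE and SC in control littermates, where 0% of 18251 genes were called by edgeR, 768 had an unadjusted p under 0.05 and DESeq2 called 15. With no difference between groups, a share of 0.05 of the genes would have an unadjusted p under 0.05, and 768 is below that share. In CBP-ifKOs 0 of 6 were called, where 0.0110% of genes were called. Averaged over genotype 0 of 6 were called, where 0.164% were, and 1 of the 6, Bdnf, had an unadjusted p under 0.05. DESeq2 called 0 of the neurotrophin genes in each of these comparisons, and gave Ngfr no adjusted p in the last. Whether the effect of genotype differed between SC and EE was tested by the interaction, for which 0 of 6 were called. In that test 0% of genes were called, 574 genes had an unadjusted p under 0.05, also below a share of 0.05, and DESeq2 called 0. The interaction of Bdnf was -0.05 ± 0.15 on the log2 scale and that of Sort1 -0.17 ± 0.10, the largest of the 6 in size (adjusted p above 0.999 for both in edgeR).

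**Figure D4:**
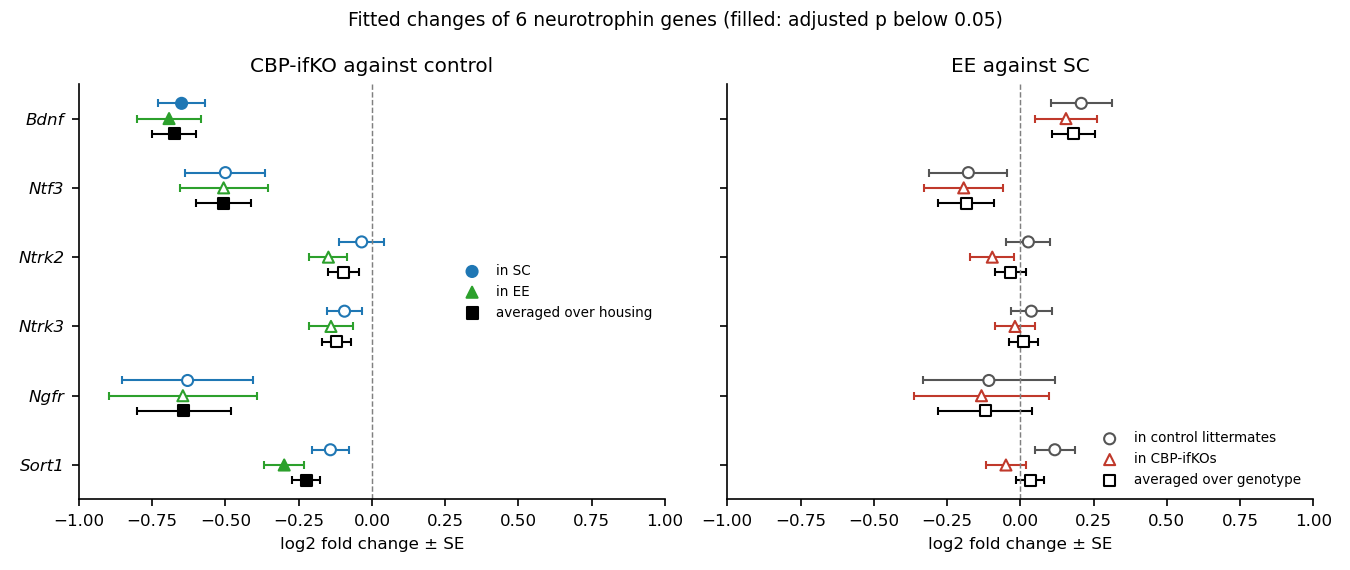
Log2 fold changes with their SE for the 6 neurotrophin genes that passed the filter on low counts, between genotypes (left) and between housing conditions (right), with filled symbols where the adjusted p was below 0.05. All 6 genes lie to the left of 0 in all genotype comparisons, with Bdnf filled in SC, in EE and averaged over housing, and no symbol is filled for EE against SC.

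The other genes of the pathway were read from lists of ligands and receptors, proneurotrophin processing, Trk and p75NTR signaling, regulators of Bdnf transcription and genes known to be induced by BDNF or by activity. Of 140 of their genes tested, 36 were called between genotypes averaged over housing, 30 lower and 6 higher in CBP-ifKOs, a share of 25.7% where 16.9% of all genes were called. In SC 16 were lower and 2 higher, a share of 12.9% where 5.52% of all genes were called, and in EE 13 were lower and 2 higher, 10.7% where 4.57% were. Their median log2 fold change averaged over housing was -0.03, close to the 0.0029 of all genes.

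Sort1 belongs to the Vps10p domain family of sorting receptors. Of 6 genes tested in the list of other ligands and receptors, 2 fell averaged over housing, where 10.3% of all genes were called lower: Sorcs3 (log2 fold change -0.32 ± 0.05, adjusted p = 0.000168) and Sorcs2, a co-receptor of p75NTR (-0.27 ± 0.05, adjusted p = 0.000685, both in edgeR). Sorcs2 was also lower in SC (-0.29 ± 0.07) and in EE (-0.25 ± 0.06), and Sorcs3 was called in EE (-0.39 ± 0.06).

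Of 17 genes tested for processing, sorting and release of proneurotrophins, 4 fell and none rose averaged over housing, where 16.9% of all genes were called and 10.3% lower, with a list median of -0.04. Plat encodes tissue plasminogen activator, the protease that starts the plasmin cleavage of proBDNF, and stood at 48.7 ± 4.95 and 46.7 ± 1.14 CPM (SD, n = 3) in SC- and EE-housed control littermates and at 36.5 ± 3.09 and 34.7 ± 1.70 CPM in CBP-ifKOs. For Plat the log2 fold change was -0.42 ± 0.09 (SE) in SC and -0.42 ± 0.06 in EE (adjusted p = 0.0157 and 0.00488 in edgeR). Pcsk1, a prohormone convertase of the regulated secretory pathway, changed by -0.36 ± 0.08 averaged over housing (adjusted p = 0.00619), and Scg2, the granule protein secretogranin II, by -0.23 ± 0.05 (adjusted p = 0.00582).

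Trk adaptors, kinases and trafficking genes carry the signal of the activated receptor. Of 45 tested, 6 fell and 1 rose averaged over housing, a share near the 16.9% of all genes. Map2k1 (MEK1) fell by 0.25 on the log2 scale (SE 0.04, adjusted p = 0.000452 in edgeR), with a mean of 379 ± 21.3 CPM (SD, n = 3) in SC-housed control littermates and 322 ± 7.87 CPM in SC-housed CBP-ifKOs. Mapk3 (ERK1), its substrate, changed by -0.24 ± 0.05 (adjusted p = 0.00195), and Nedd4l, a ubiquitin ligase, by -0.17 ± 0.04 (adjusted p = 0.00859).

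Of 19 genes tested that work with p75NTR, 4 rose and 3 fell averaged over housing, where 16.9% of all genes were called in either direction, and the list median was 0.02. Irak1, a kinase of the interleukin 1 receptor pathway that also acts with p75NTR, was higher in CBP-ifKOs (0.16 ± 0.04, adjusted p = 0.0130 in edgeR). Arhgdia, a GDP dissociation inhibitor that p75NTR binds, was lower (-0.21 ± 0.05, adjusted p = 0.00582). Rtn4r, the Nogo receptor that partners with p75NTR, was called in EE (-0.34 ± 0.08, adjusted p = 0.0301).

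Of 28 regulators of Bdnf transcription tested, 6 fell and 1 rose averaged over housing, where 10.3% of all genes were called lower, with a list median of -0.02, and Crebbp, the deleted gene, was among the 6. Mef2d, an activity-regulated transcription factor, stood at 225 ± 9.38 and 213 ± 5.16 CPM (SD, n = 3) in SC- and EE-housed control littermates and at 177 ± 10.4 and 159 ± 15.6 CPM in CBP-ifKOs (log2 fold change -0.39 ± 0.05, SE; adjusted p = 5.35e-05, edgeR). Crtc1, a coactivator of CREB, changed by -0.34 ± 0.05 (adjusted p = 0.000117). Rest, which encodes a repressor of neuronal genes, was higher, at 11.6 ± 1.30 CPM in SC-housed CBP-ifKOs against 7.39 ± 1.06 in SC-housed control littermates (SD, n = 3) and at 10.9 ± 1.05 against 7.06 ± 1.48 in EE. For Rest the log2 fold change averaged over housing was 0.64 ± 0.10 (SE; adjusted p = 0.000635). Creb1 itself (-0.06 ± 0.05, adjusted p = 0.406) and Ep300, the paralog of Crebbp (0.12 ± 0.09, adjusted p = 0.408), did not pass.

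Genes known to be induced by BDNF or by neuronal activity form the last list. Of 28 tested, 11 fell and none rose between genotypes averaged over housing, where 10.3% of all genes were called lower, with a list median of -0.18. Nptx2, a secreted pentraxin of excitatory synapses, stood at 16.9 ± 2.48 CPM (SD, n = 3) in control littermates and 8.37 ± 0.478 CPM in CBP-ifKOs in SC, and at 27.4 ± 2.06 and 13.4 ± 2.33 CPM in EE. Penk, the precursor of enkephalins, stood at 22.5 ± 1.63 and 11.0 ± 0.672 CPM in SC and at 27.7 ± 1.89 and 16.7 ± 2.20 CPM in EE. Their log2 fold changes averaged over housing were -1.02 ± 0.09 and -0.88 ± 0.07 (adjusted p = 1.92e-06 and 8.92e-07 in edgeR). Inhba, a subunit of activins, changed by -0.67 ± 0.11 (adjusted p = 0.000700), and Egr3, an early response transcription factor, by -0.40 ± 0.10 in EE (adjusted p = 0.0429). The immediate early genes Arc (0.28 ± 0.27, adjusted p = 0.543) and Fos (0.33 ± 0.46, adjusted p = 0.688) did not pass and varied widely among mice, Fos from 4.82 to 47.3 CPM.

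In this list 3 of the 28 genes rose in EE averaged over genotype, a comparison in which 0.164% of all genes were called and no neurotrophin gene passed: Nptx2 by 0.69 ± 0.09, Penk by 0.45 ± 0.07 and Npy, the gene of neuropeptide Y, by 0.43 ± 0.07 on the log2 scale (adjusted p = 0.00555, 0.0149 and 0.0190 in edgeR). No gene of the other pathway lists was called between housing conditions in that comparison, and none of the 140 was called for the interaction. Among the cell type markers, Sox9, a transcription factor of astrocytes, was lower in EE averaged over genotype (-0.40 ± 0.06, adjusted p = 0.0103 in edgeR).

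**Figure D5:**
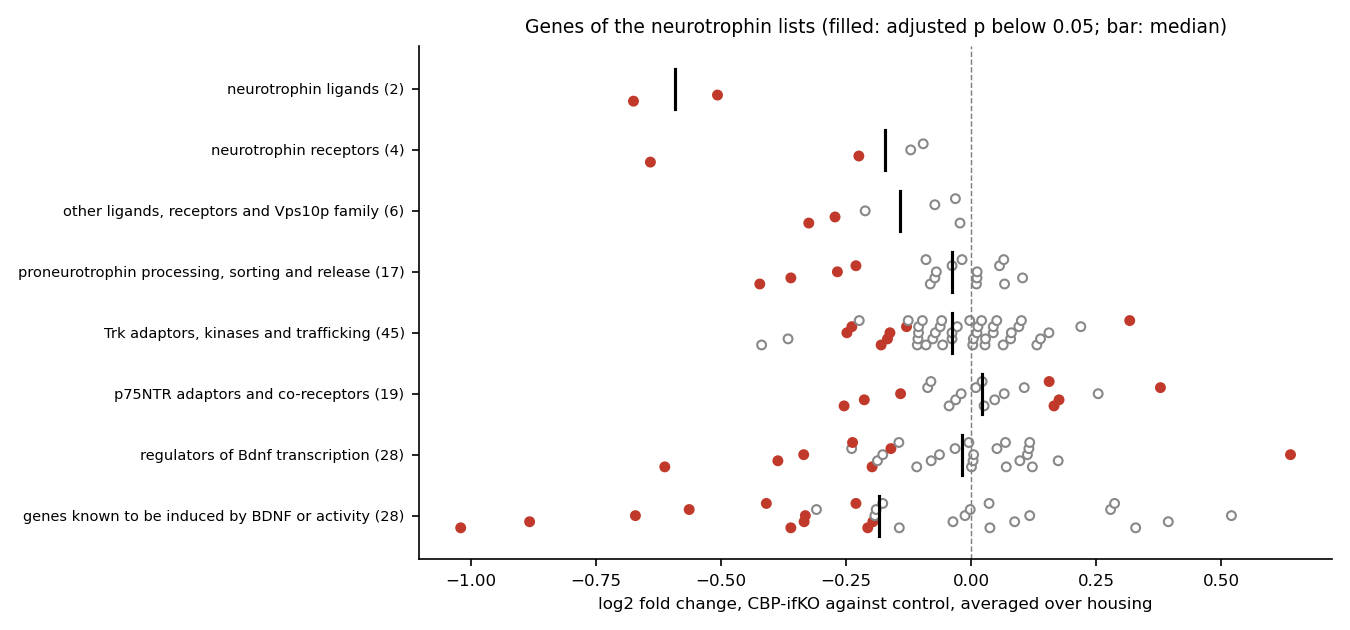
Log2 fold change between genotypes, averaged over housing, of each gene tested in the neurotrophin lists (number tested in brackets), with filled points where the adjusted p was below 0.05 and a black bar at each list's median. The bars of the ligands (-0.59) and receptors (-0.17) lie to the left, as does that of genes induced by BDNF or activity (-0.18), and those of the signaling and regulator lists lie near 0.

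Markers of the cells that make and receive neurotrophins were compared beside these changes. For CA1 pyramidal cells, the summed level of the 4 markers was 626 to 719 CPM in control littermates and 453 to 497 CPM in CBP-ifKOs, with Wfs1 (-0.86 ± 0.09), Fibcd1 (-0.51 ± 0.05) and Mpped1 (-0.38 ± 0.04) called lower averaged over housing. The 4 markers of CA2 summed to 154 to 168 CPM and 79.1 to 98.5 CPM, with Rgs14 (-1.18 ± 0.05) and Ccdc3 (-0.53 ± 0.09) called. Rgs14 made up most of these sums. Its means in control littermates and CBP-ifKOs were 110 and 51.5 CPM in SC and 120 and 50.4 CPM in EE. In the same order, those of Amigo2 were 31.9, 27.5, 34.2 and 33.7 CPM and those of Map3k15 1.72, 1.67, 1.93 and 2.12 CPM. Neither Amigo2 nor Map3k15 was called. The summed levels of all other marker lists overlapped between genotypes over the 12 mice. Within SC, those of CA3, interneurons, astrocytes, oligodendrocyte precursors, microglia and endothelium did not overlap and were lower in CBP-ifKOs. Within EE the same held for excitatory neurons, astrocytes, microglia and thalamus, so that only astrocytes and microglia were separate in both. The share of all genes that separate in this way in 3 against 3 mice was not computed, and no result is drawn from these separations. Averaged over housing, where 16.9% of all genes were called in either direction and 10.3% lower, 2 of 5 excitatory neuron markers were called lower (Nrgn, Neurod6). Of 6 dentate granule cell markers 2 were lower (Tdo2, Dsp) and 1 higher (Lct), and of 5 CA3 markers 2 were lower (Iyd, Grik4). Of 6 astrocyte markers 2 were lower (Sox9, Slc1a3), of 5 microglia markers 2 (Cx3cr1, Csf1r), both oligodendrocyte precursor markers (Cspg4, Pdgfra) and 1 of 3 thalamus markers (Prkcd). Of 6 interneuron markers 1 was higher (Vip), and none of the oligodendrocyte, endothelium, meninges and fibroblast, choroid plexus or basal forebrain cholinergic markers tested was called in that comparison, while Col1a1, a collagen of fibroblasts, was higher in CBP-ifKOs in EE (0.72 ± 0.17, adjusted p = 0.0393 in edgeR). The part of CA1, CA2 and these other cells in the neurotrophin changes was not tested.

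The genes whose log2 CPM followed each neurotrophin gene most closely over the 12 mice, among 18250 others, were Abi1 (Pearson r = 0.967), Actr3 (0.961) and Rara (0.960) for Bdnf, and Rap2a (0.958), Cdh9 (0.951) and Lrrn3 (0.947) for Ntf3. They were Ttc3 (0.972), Atp13a4 (0.950) and Ago2 (0.944) for Ntrk2, and Pja2 (0.965), Plxna2 (0.952) and Enah (0.947) for Ntrk3. For Ngfr they were A330093E20Rik (0.939), Cxxc5 (0.933) and Ptp4a2 (0.928), and for Sort1 Atf6 (0.965), Slc7a14 (0.957) and Cacnb2 (0.954). These values describe 12 points that include the difference between genotypes and share their libraries.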

How the data were processed

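Hippocampal RNA of 12 mice was analyzed. Per the labels and methods, single-end reads of 50 bp were trimmed by the authors with Trim Galore 0.6.4; they aligned them with STAR 2.6.1 to GRCm38, kept alignments with mapping quality above 10 and counted them on exons with Rsubread, merging the 2 runs of each mouse. The deposited counts are unnormalized, and the deposited gene lengths (bases) scale levels per kilobase here.

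Tests used edgeR 4.0.16 under R 4.3.3 (TMM, edgeR's expression filter, quasi-likelihood F test, Benjamini-Hochberg adjustment at 0.05 over all genes). Genotypes were compared in 6 mice per housing, and housing effects, averages and the interaction in 12 mice with 1 coefficient per group. The ratio of Bdnf to Ntrk2 was compared by exact permutation (Python 3.11.15, numpy 2.4.6). The scripts were tested on simulated data.

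The genes examined, the lists and the tests were chosen with earlier results of these data known. The text names the neurotrophin genes in every comparison, up to 3 called genes of each list with the smallest p per comparison, Crebbp, defining markers, and the 3 genes most correlated with each neurotrophin gene. Some genes of the lists are not reported here by name. Creb1, Ep300, Arc and Fos were named after their values were seen. Alternatives were DESeq2 1.42.0, its size factors, halved CBP-ifKO counts, other filters, other sets of mice, a replicate block and leaving out each mouse.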

Additional observations from a re-analysis of the deposited data

How the results depend on the processing

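Of 705 recomputed log2 fold changes of the neurotrophin genes, 675 kept their direction and their side of the threshold, among them all those of Bdnf, Ntf3, Ngfr and Sort1 between genotypes averaged over housing and all those with halved CBP-ifKO counts. The number of neurotrophin genes called between genotypes in SC was 2 instead of 1 without a filter on low counts and 2 in the fit of all 12 mice, both through Ntf3. In EE it was 2, against 3 in the fit of all 12 mice, again through Ntf3 (adjusted p = 0.0307 in edgeR), and 1 to 2 when 1 mouse was left out. Ntrk3 passed between genotypes averaged over housing without a filter (-0.13, adjusted p = 0.0327 in edgeR). Changes that turned direction when 1 mouse was left out were all uncalled. They ranged from -0.10 to 0.067 for Ntrk2 between genotypes in SC. Between EE and SC in control littermates, they ranged from -0.042 to 0.13 for Ntrk2, from -0.052 to 0.098 for Ntrk3 and from -0.33 to 0.0076 for Ngfr. They ranged from -0.037 to 0.0090 for Ntrk3 in CBP-ifKOs, and averaged over genotype from -0.068 to 0.018 for Ntrk2 and from -0.035 to 0.041 for Ntrk3. For the interaction, they ranged from -0.16 to 0.050 for Bdnf, from -0.087 to 0.083 for Ntf3, from -0.11 to 0.035 for Ntrk3 and from -0.14 to 0.20 for Ngfr. The log2 ratio of Bdnf to Ntrk2 between genotypes stayed between -0.65 and -0.53.

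Over all genes, 968 were called between genotypes in SC (1512 without a filter, 399 to 1908 with 1 mouse left out) and 805 in EE (1296 with DESeq2, 1677 without a filter, 1293 with all 12 mice, 285 to 1016 with 1 mouse left out). Between EE and SC, the calls were 0 in control littermates (15 with DESeq2, 145 without a filter, 1 with 6 mice, up to 5 with 1 mouse left out), 2 in CBP-ifKOs (54 with DESeq2, 0 with halved counts, 247 without a filter, 21 with 6 mice, 0 to 10 with 1 mouse left out) and 30 averaged over genotype (158 with DESeq2, 334 without a filter, 7 to 42 with 1 mouse left out). The interaction gave 0, and 110 without a filter. Causes were not tested. Mice of the same replicate number did not deviate together in every pair (r between -0.047 and 0.30). With the replicate number as a block, the calls were 1041 in SC, 1089 in EE, 17 between EE and SC in CBP-ifKOs and 48 averaged over genotype. The ratio then differed by -0.58 (exact sign permutation p = 0.0313, the smallest that this test can give). The block changed no call of a neurotrophin gene. Counting limits Ntf5 and Ngfr most.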
